A study of Mus musculus with 6 samples.

Results

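The 9 genes described here carry the vascular endothelial growth factor (VEGF) and angiopoietin signals between the cells of the kidney: the ligand Vegfa, its receptors Kdr, Flt1 and Nrp1, the ligands Angpt1 and Angpt2, the receptors Tek and Tie1, and the tip cell gene Esm1. They were taken by gene symbol from the 33696 genes of the deposited count tables, and all 9 were found. The data are single-cell RNA-seq of kidneys from 3 Sham and 3 DOCA-salt mice, 1 library per mouse, all male C57BL/6 animals that were 8 to 10 weeks old on purchase. In the DOCA-salt group the left kidney was taken out and, 1 week later, a 50 mg pellet of deoxycorticosterone acetate (DOCA), a steroid that activates the mineralocorticoid receptor, was placed under the skin, with 1% NaCl as drinking water for 21 days. Sham mice had a sham operation, no pellet and plain water, so the loss of 1 kidney, the steroid and the salt cannot be told apart in this comparison. The comparison asks how this pathway stands in each cell type of a kidney under mineralocorticoid and salt excess.

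VEGF made by epithelial cells reaches the endothelium next to it, where VEGFR2 (the product of Kdr) relays its growth and permeability signal. VEGFR1 (Flt1) binds the same ligand more tightly and signals weakly, so that it can act as a decoy, and neuropilin 1 (Nrp1) is a co-receptor shared with the class 3 semaphorins. Angiopoietin 1 (Angpt1) activates TIE2 (Tek) and keeps vessels quiet and tight, angiopoietin 2 (Angpt2) competes with it, and TIE1 (Tie1) is a partner receptor that tunes TIE2. Esm1 (endocan) is a secreted proteoglycan that VEGF induces in sprouting endothelium. In the kidney, podocytes and tubules are the known sources of VEGF, and the fenestrated capillaries of the glomerulus and around the tubules depend on it.

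The libraries held 93172739 to 137819127 UMIs, that is, distinct RNA molecules counted. After filters and doublet removal, 7701 to 9933 cells per mouse were analysed, with median UMIs per cell of 4787 to 7610 in Sham and 5869 to 9148 in DOCA-salt mice. Between 18 and 41 barcodes were shared by any pair of libraries. Cells were clustered without these 9 genes and named from fixed marker lists, so each cell type named below is a cluster that resembles that type by its markers. No cluster met the podocyte markers. The 9 general endothelial markers, none of them at 0, summed to 6062 to 6681 CPM (UMI counts scaled to the same total in every sum) in the endothelium of Sham mice and to 7227 to 7693 CPM in that of DOCA-salt mice, while in tubular cells they summed to 17.9 to 24.1 CPM and 29.8 to 36.9 CPM. Levels are given as CPM of the UMIs summed over the cells of 1 type in 1 mouse, in the order Sham 1, 2, 3 and DOCA-salt 1, 2, 3. Counts at the 3′ end of transcripts do not separate the soluble from the membrane form of Flt1 or the splice forms of Vegfa. Levels are not compared here between genes, and the ratios of a pair of genes given below are compared only between the groups. In sums over many cell types, a change in the number of cells of a type cannot be told apart from a change in the RNA of each cell, which is why single cell types follow the sums for the 9 genes.

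In the GRCm39 assembly (GENCODE vM39), Vegfa lies on the minus strand of chr17:46327919-46343309, Kdr on the minus strand of chr5:76093487-76139884 and Flt1 on the minus strand of the same chromosome at chr5:147498414-147662826. Nrp1 occupies chr8:129085085-129231082 on the plus strand, and the receptors Tek and Tie1 lie at chr4:94627291-94763224 (plus) and chr4:118328385-118347261 (minus). Angpt1 spans chr15:42288058-42540417 (minus), Angpt2 spans chr8:18739202-18791603 (minus) and lies within the opposite-strand gene Mcph1, and Esm1 spans chr13:113346021-113354632 (plus) and lies within the opposite-strand gene Gzmk. RefSeq start-site windows (GRCm38.p6) were matched for 7 of the 9 genes. The 250 bases before the start are shown for Esm1 and for 4 of the 5 receptors, whose levels carry the endothelial comparisons below. The window of Tie1, the remaining receptor, held neither of the words marked here and is not shown. Capitals mark the hypoxia response core (ACGTG or GCGTG, read as CACGT or CACGC on the other strand) or the steroid receptor half-site (AGAACA, or TGTTCT on the other strand).
Kdr (chr5:75978456-75978705, minus strand): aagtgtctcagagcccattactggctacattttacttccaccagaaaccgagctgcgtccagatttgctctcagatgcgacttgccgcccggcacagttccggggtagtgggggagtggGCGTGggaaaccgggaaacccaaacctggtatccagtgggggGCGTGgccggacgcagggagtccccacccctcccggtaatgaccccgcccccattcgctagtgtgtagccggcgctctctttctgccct
Flt1 (chr5:147726012-147726261, minus strand): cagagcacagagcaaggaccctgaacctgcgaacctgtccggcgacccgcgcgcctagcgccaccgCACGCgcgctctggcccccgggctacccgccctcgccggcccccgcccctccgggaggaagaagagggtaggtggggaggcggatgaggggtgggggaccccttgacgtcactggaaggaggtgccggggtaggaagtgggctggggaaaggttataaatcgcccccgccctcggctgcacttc
Nrp1 (chr8:128358823-128359072, plus strand): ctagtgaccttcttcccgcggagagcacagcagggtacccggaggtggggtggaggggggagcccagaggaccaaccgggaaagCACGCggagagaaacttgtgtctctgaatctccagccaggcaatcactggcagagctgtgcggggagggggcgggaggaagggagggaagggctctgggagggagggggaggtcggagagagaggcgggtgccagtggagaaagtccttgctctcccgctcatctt
Tek (chr4:94739039-94739288, plus strand): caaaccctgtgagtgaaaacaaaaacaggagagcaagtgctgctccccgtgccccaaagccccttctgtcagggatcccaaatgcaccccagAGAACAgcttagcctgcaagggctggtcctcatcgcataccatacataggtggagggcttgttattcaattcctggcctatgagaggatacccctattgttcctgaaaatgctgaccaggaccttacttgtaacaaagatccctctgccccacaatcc
Esm1 (chr13:113209409-113209658, plus strand): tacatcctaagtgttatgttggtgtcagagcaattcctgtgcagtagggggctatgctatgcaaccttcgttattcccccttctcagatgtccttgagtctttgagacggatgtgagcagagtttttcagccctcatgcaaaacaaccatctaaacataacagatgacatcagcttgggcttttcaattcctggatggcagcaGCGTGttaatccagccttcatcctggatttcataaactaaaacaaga
The window of Kdr held GCGTG at 131 and at 89 bases before the start, those of Flt1 and Nrp1 held CACGC at 184 and 166 bases, and that of Esm1 held GCGTG at 47 bases. The window of Tek held no hypoxia core but 1 AGAACA at 158 bases. Over all 32851 windows of the same length, 38.6% held a hypoxia core and 16.1% held a steroid half-site on either strand, so these words are common and mark no binding site by themselves.

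Most of these genes had 1 main home among the cell types. The receptors and Esm1 were endothelial: in Sham mice the endothelium held 94.7% of the Kdr UMIs, 95.5% of those of Flt1, 94.9% of Tek, 94.2% of Tie1 and 95.1% of Esm1, from 4.57% of all UMIs. Nrp1 was broader, with 52.8% of its UMIs in the endothelium and 36.6% in tubular cells. The ligands were mainly epithelial by their share of UMIs. Tubular cells held 94.5% of the Vegfa UMIs and 93.9% of those of Angpt1, and the thin limb alone held 87.9% of those of Angpt2. In DOCA-salt mice these shares were lower, with 88.7% of Kdr in the endothelium, 82.0% of Angpt1 in tubular cells and 65.2% of Angpt2 in the thin limb, while fibroblasts held 15.5% of Nrp1, 7.45% of Angpt1 and 12.5% of Angpt2. Fibroblasts made up 0.137% of Sham cells and 2.90% of DOCA-salt cells. Of all UMIs, the proximal tubule gave 62.5% in Sham and 49.0% in DOCA-salt mice, and the thin limb 4.56% and 2.94%. In Sham mice the thick ascending limb gave 7.02%, intercalated cells 6.31%, the distal convoluted and connecting tubule 3.83% and principal cells 3.10%. Tubular cells thus held most RNA of any kind, so their shares of Vegfa and Angpt1 alone show no preference for them. Glomerular endothelium held 0.375% of the Vegfa UMIs in Sham and 0.260% in DOCA-salt mice, from 0.365% and 0.177% of all UMIs.

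**Figure D1:**
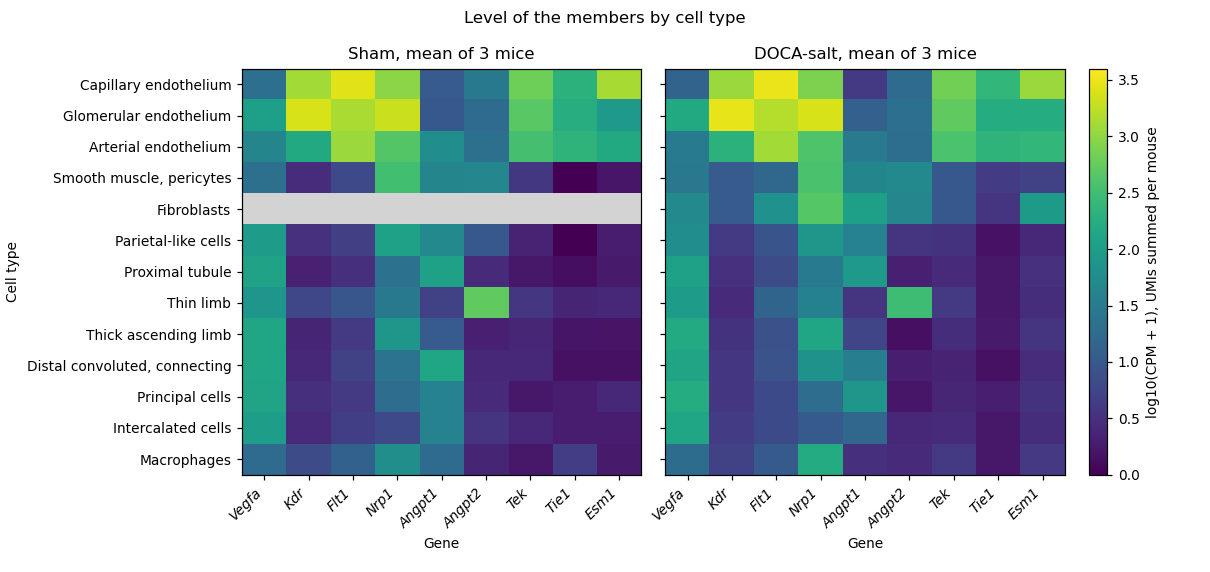
Mean level of the 9 genes (columns) in 13 cell types (rows), as log10(CPM + 1), for the Sham and DOCA-salt groups. Sham fibroblasts are grey because too few cells were counted. Kdr, Flt1, Tek, Tie1 and Esm1 are bright in the endothelial rows, Vegfa in the tubular ones and also in glomerular endothelium, and Angpt2 in the thin limb.

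Within the endothelium the order of levels differed by gene. Kdr was highest in glomerular endothelium (mean 2379 CPM in Sham), then in capillary endothelium (1249 CPM), then in arterial endothelium (154 CPM), and the mice of neighbouring types did not overlap in either group. Nrp1 had the same order, and Flt1 was highest in capillary cells, with the glomerular and arterial ranges overlapping. Tek stood at 635 CPM in capillary, 471 CPM in glomerular and 344 CPM in arterial cells of Sham mice without overlap, but its capillary and glomerular ranges overlapped in DOCA-salt mice. Tie1 ranges overlapped across these sub-types. Esm1 was at 1340 CPM in capillary cells, and its arterial and glomerular ranges (means 150 and 88.9 CPM) overlapped. Among the tubular segments of Sham mice Vegfa ranged from 136 CPM in the thick ascending limb through 134 in the distal convoluted and connecting tubule, 128 in principal cells, 117 in the proximal tubule and 99.4 in intercalated cells to 77.4 CPM in the thin limb. The ranges of neighbours in this order overlapped from the thick ascending limb to the proximal tubule, whereas the proximal tubule lay above the intercalated cells and these above the thin limb without overlap. Angpt1 was highest in the distal convoluted and connecting tubule (133 CPM) and the proximal tubule (115 CPM), whose ranges overlapped.

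In the kidney as a whole, the receptors Kdr, Flt1, Tek and Nrp1 and the tip cell gene Esm1 were higher and the angiopoietins lower in DOCA-salt mice. Of the 9 genes, 7 passed edgeR's quasi-likelihood test at an adjusted p under 0.05, against 17.2% of all genes tested. Kdr was at 27.1, 32.5 and 30.4 CPM in Sham and at 45.3, 73.7 and 83.0 CPM in DOCA-salt mice, a log2 change of +1.04 ± 0.19 (SE, adjusted p = 0.00911). Flt1 was at 72.5, 72.5 and 81.7 CPM against 136, 202 and 212 CPM (+1.15 ± 0.16, adjusted p = 0.00267), and Tek at 18.7, 20.9 and 22.1 CPM against 35.4, 41.9 and 47.8 CPM (+0.90 ± 0.12, adjusted p = 0.00263). For all 3 receptors every DOCA-salt mouse lay above every Sham mouse. Here and below, the share of all genes whose groups lay apart was not counted, so a lack of overlap only describes the mice. Nrp1 was at 58.3, 56.7 and 67.1 CPM against 87.9, 131 and 122 CPM (+0.78 ± 0.15, adjusted p = 0.00998). Esm1 was at 19.5, 29.8 and 16.6 CPM against 40.7, 67.2 and 89.8 CPM (+1.46 ± 0.29, adjusted p = 0.0115), a call that was lost without Sham 1 (+1.38, adjusted p = 0.0543). In the other direction, Angpt1 fell from 77.8, 106 and 76.7 CPM to 57.8, 54.2 and 56.9 CPM (-0.74 ± 0.13, adjusted p = 0.00732), and Angpt2 from 25.2, 35.2 and 20.3 CPM to 14.7, 13.7 and 12.9 CPM (-1.08 ± 0.18, adjusted p = 0.00632). Neither angiopoietin overlapped between the groups.

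The remaining pair did not pass. Vegfa was at 106, 113 and 104 CPM in Sham and at 105, 93.0 and 97.3 CPM in DOCA-salt mice (-0.25 ± 0.09, adjusted p = 0.117). Tie1 was at 11.1, 6.20 and 14.1 CPM against 12.01, 23.7 and 16.3 CPM (+0.60 ± 0.32, adjusted p = 0.243), with overlapping groups. The ratio of Angpt2 to Angpt1, the competing ligands of TIE2, was -1.59, -1.56 and -1.87 on the log2(CPM + 1) scale in Sham and -1.91, -1.91 and -2.06 in DOCA-salt kidneys, a difference of -0.29 with an exact two-sided permutation p of 0.1, the smallest that 3 mice against 3 allow. This difference was -0.16 without doublet removal and -0.17 with a pseudocount of 5 (exact permutation p = 0.3 for each), and -0.38 with at most 20% mitochondrial UMIs (exact permutation p = 0.2). The ratio of Flt1 to Kdr in the endothelium differed by 0.12 (exact permutation p = 0.4), and by 0.02 to 0.19 over the alternatives.

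Among the cells recovered, the make-up of the endothelium differed between the groups, and no test of cell shares was made. Endothelial cells were 5.83% ± 0.719 (SD, n = 3) of all cells in Sham and 7.37% ± 0.838 in DOCA-salt mice, with overlapping groups. They held 4.57% and 6.54% of the UMIs. Capillary cells were 44.9% of the endothelium in Sham and 67.0% in DOCA-salt mice, arterial cells 40.8% and 18.6%, and glomerular cells 6.05% and 2.41%. Capillary cells of DOCA-salt mice were also more deeply counted, with median UMIs of 5502 to 7275 against 2954 to 3482 per cell. Of all kidney UMIs, capillary cells gave 1.19% in Sham and 4.29% in DOCA-salt mice. The share of Kdr UMIs that came from capillary cells was accordingly 50.4% in Sham and 72.9% in DOCA-salt mice, and for Flt1 it was 44.1% and 72.9%.

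Summed over the endothelium, 3 of the 9 genes passed the test, against 9.60% of all genes. Flt1 rose from 1650, 1632 and 1486 CPM to 2295, 2617 and 2543 CPM (+0.64 ± 0.13, adjusted p = 0.0128). Angpt1, a low-level transcript in this sum, fell from 38.5, 36.5 and 46.4 CPM to 15.1, 10.6 and 11.5 CPM (-1.73 ± 0.18, adjusted p = 0.000516). Vegfa was at 30.8, 38.2 and 56.7 CPM against 23.8, 19.1 and 22.6 CPM (-0.96 ± 0.22, adjusted p = 0.0224). The Flt1 call was lost without Sham 3 (adjusted p = 0.0626), DOCA-salt 2 (0.0511) or DOCA-salt 3 (0.0555), and the Vegfa call without Sham 3 (-0.63, adjusted p = 0.0939), DOCA-salt 1 (0.0551), DOCA-salt 2 (0.0785) or DOCA-salt 3 (0.0658). The Angpt1 call held without any single mouse. Arterial cells, whose share was lower in DOCA-salt mice, gave 370 of the 410 Angpt1 UMIs and 268 of the 421 Vegfa UMIs of the Sham endothelium. Glomerular cells, whose share was lower as well, gave 8 and 90 of them. Vegfa passed in none of the endothelial sub-types, with changes of -0.60 in capillary (adjusted p = 0.155), -0.52 in arterial (0.495) and +0.38 in glomerular cells (0.888). Proximal tubule markers summed to 546 to 833 CPM in the endothelium of Sham and 306 to 500 CPM in that of DOCA-salt mice beside the lower Angpt1 and Vegfa, and their part was not tested. Kdr at 611, 719 and 554 CPM against 751, 954 and 1006 CPM (+0.52, adjusted p = 0.0520), Tek at 426, 470 and 394 CPM against 589, 546 and 574 CPM (+0.40, adjusted p = 0.0532) and Esm1 at 439, 665 and 302 CPM against 630, 858 and 1009 CPM (+0.83, adjusted p = 0.0613) did not pass. The Nrp1 change was 0.00 (adjusted p = 0.989), with 705, 690 and 719 CPM against 662, 765 and 704 CPM.

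Within capillary cells none of the receptors passed the test, and 1 of the 9 genes, Angpt1, did, against 9.08% of all genes. Kdr was at 1207, 1409 and 1130 CPM in Sham and 1032, 1144 and 1244 CPM in DOCA-salt mice (-0.15 ± 0.14, adjusted p = 0.577), and Flt1 at 2920, 2844 and 2500 CPM against 3066, 3224 and 3100 CPM (+0.16 ± 0.14, adjusted p = 0.546). Tek was at 644, 677 and 585 CPM against 715, 638 and 657 CPM (+0.06, adjusted p = 0.861), and Esm1 at 1159, 1704 and 1156 CPM against 900, 1155 and 1339 CPM (-0.26, adjusted p = 0.431). The groups overlapped for Kdr, Tek and Esm1 but not for Flt1. Nrp1 was at 1048, 905 and 865 CPM against 730, 821 and 781 CPM, every DOCA-salt mouse below every Sham mouse, yet without passing (-0.30, adjusted p = 0.201). Angpt1 was near its counting limit, with 27 UMIs over the Sham capillary cells and levels of 14.2, 6.36 and 9.14 CPM against 3.16, 3.06 and 3.17 CPM (-1.69 ± 0.39, adjusted p = 0.0173), and its call was lost without Sham 1 (-1.30, adjusted p = 0.181) or Sham 3 (-1.70, adjusted p = 0.0524). Without any 1 DOCA-salt mouse it had too few counts to be tested. Proximal tubule markers, where Angpt1 is high, summed to 955 to 1368 CPM in the capillary cells of Sham mice and to 314 to 518 CPM in those of DOCA-salt mice, and the part of tubular RNA in this difference was not tested. Single clusters are called here by a gene among their leading genes. The capillary class was made of a cluster led by Exoc3l2 (392 Sham and 63 DOCA-salt cells) and a cluster led by Fabp4 (319 and 1330 cells). The Sham mice were not alike in this, with 184, 23 and 185 cells in the former and 60, 245 and 14 in the latter, so that Sham 2 gave 245 of the 319 Sham cells of the Fabp4-led cluster. The DOCA-salt mice had 20, 20 and 23 cells in the former and 364, 489 and 477 in the latter. Esm1 took no part in the clustering but was itself among the leading genes of the former. Angpt1 had too few counts to be tested in either cluster with all 6 mice. None of the 6 genes tested in the former passed (2 had an unadjusted p under 0.05) and none of the 8 tested in the latter (1 had), where edgeR called 0.287% and 2.00% of all genes. The Kdr change was -0.67 (adjusted p = 0.304) in the former and -0.02 in the latter.

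The receptors did not pass in the smaller endothelial classes either. In glomerular cells, of which 13 to 40 per mouse were counted, none of the 7 genes with enough counts passed, against 0.456% of all genes. Kdr was at 2376, 2251 and 2511 CPM in Sham and 3023, 2915 and 2982 CPM in DOCA-salt mice, without overlap (+0.28 ± 0.18, adjusted p = 0.779), and Esm1 at 209, 26.1 and 31.9 CPM against 167, 233 and 100 CPM (+0.94, adjusted p = 0.728). Sham 1 stood apart for Esm1, whose change was +2.49 without that mouse (adjusted p = 0.0236), +0.50 without Sham 3 (0.951) and -0.56 without doublet removal (0.954). Podocyte markers summed to 13.0 to 708 CPM in the glomerular cells of Sham mice and to 15.5 to 24.5 CPM in those of DOCA-salt mice. In arterial cells, 1 of the 9 genes passed, against 0.182% of all genes. This was again Angpt1, at 54.1, 57.7 and 60.6 CPM against 28.0, 30.1 and 27.2 CPM (-1.03 ± 0.17, adjusted p = 0.0209), a call lost without Sham 3 (adjusted p = 0.134), DOCA-salt 1 (0.0736) or DOCA-salt 3 (0.114). Arterial Kdr was at 167, 146 and 150 CPM against 194, 206 and 207 CPM (+0.37, adjusted p = 0.303), and arterial Esm1 at 158, 188 and 106 CPM against 265, 214 and 246 CPM (+0.67 ± 0.18, adjusted p = 0.136), both without overlap and neither past the threshold.

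**Figure D2:**
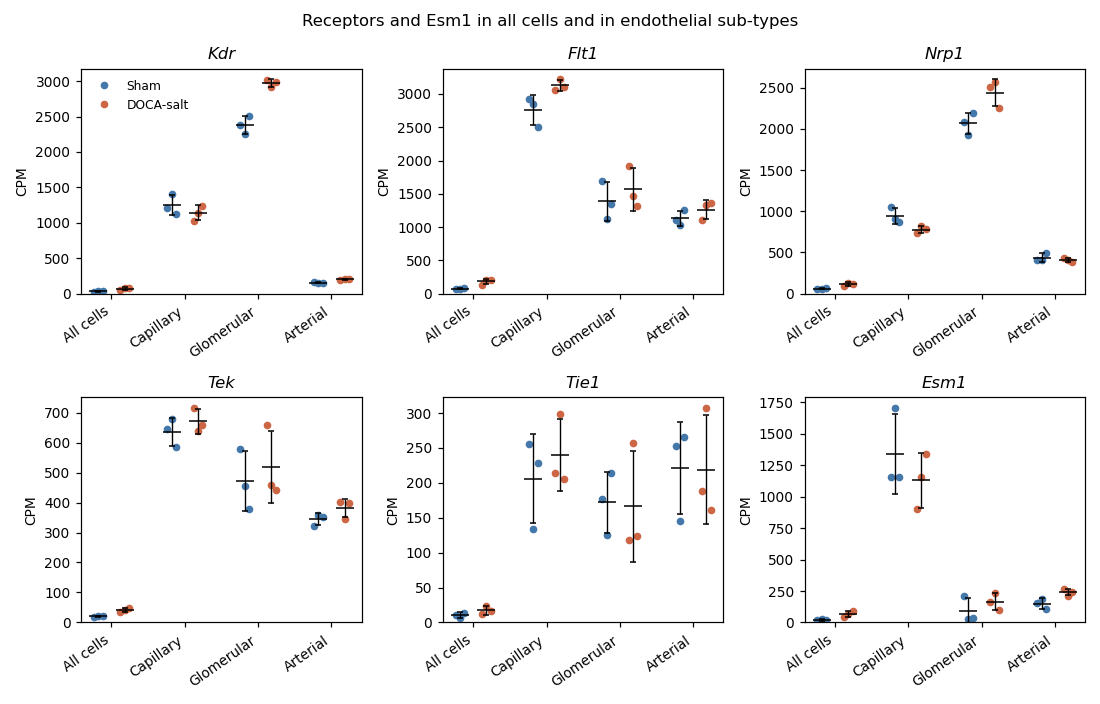
Levels (CPM) of Kdr, Flt1, Nrp1, Tek, Tie1 and Esm1 in all kidney cells and in capillary, glomerular and arterial endothelial cells. Points are mice and bars are group means with SD (n = 3 per group). In all kidney cells Flt1 is at 72.5 to 81.7 CPM in Sham and 136 to 212 CPM in DOCA-salt mice. Within capillary cells it is at 2500 to 2920 CPM and 3066 to 3224 CPM.

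The arterial cells fell into clusters that could be followed one by one. In the cluster led by the urea transporter gene Slc14a1, Angpt1 was at 66.5, 71.9 and 88.1 CPM in Sham and 32.9, 33.5 and 27.6 CPM in DOCA-salt mice (-1.25 ± 0.23, adjusted p = 0.0289, against 0.158% of all genes called). This call was lost without Sham 1 (adjusted p = 0.05004), Sham 3 (0.235), DOCA-salt 1 (0.185), DOCA-salt 2 (0.0740) or DOCA-salt 3 (0.207). In the cluster led by Epha6, where 1.62% of all genes were called, Esm1 was at 13.8, 44.6 and 13.8 CPM against 62.4, 51.0 and 130 CPM (+1.68 ± 0.39, adjusted p = 0.0339), and the call was lost without Sham 1 (adjusted p = 0.157), Sham 3 (0.148), DOCA-salt 1 (0.0687) or DOCA-salt 3 (0.209). The Esm1 change was +0.45 (adjusted p = 0.598) in the Slc14a1-led cluster, and the Angpt1 change was -0.96 (adjusted p = 0.340) in the Epha6-led one. In the remaining arterial cluster, led by Stmn2 (95 Sham and 39 DOCA-salt cells), DOCA-salt 3 had too few cells for the fit, and the changes were -0.40 for Esm1 (adjusted p = 0.999) and -0.55 for Angpt1 (adjusted p = 0.958). A small sub-cluster that stayed unnamed held 1 Sham and 63 DOCA-salt cells, and its Kdr level in the DOCA-salt mice was 1260, 2038 and 1796 CPM.

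The change of a gene was also compared between cell types by a test of the difference of the log2 changes. Between arterial and capillary cells, where 2.86% of all genes differed, the change of Esm1 differed by +0.94 ± 0.16 (adjusted p = 0.0011) and held without any single mouse, and that of Kdr by +0.51 ± 0.12 (adjusted p = 0.0213), which was lost without Sham 2 (adjusted p = 0.133), DOCA-salt 1 (0.0833) or DOCA-salt 2 (0.129), and was +0.77 without doublet removal and +0.81 with finer clusters. Both genes thus stood further up in arterial than in capillary cells relative to their Sham level. Between glomerular and capillary cells, where 1.78% of all genes differed, none of the 8 genes tested did (Nrp1 +0.57, adjusted p = 0.0774). Esm1 there differed by +1.31 (adjusted p = 0.125), a value that rested on single mice and settings: it was +2.89 without Sham 1 (adjusted p = 2.03e-08), +1.67 without DOCA-salt 3 (0.0221), +1.21 without the filter on low counts (0.0047), +2.19 with at most 20% mitochondrial UMIs (0.000292) and -0.10 without doublet removal (0.987). Between the endothelium and the tubule, where 9.34% of all genes differed, 4 of the 9 genes did. Angpt1 (-1.19 ± 0.20, adjusted p = 0.00101), Vegfa (-0.95 ± 0.19, adjusted p = 0.00504) and Nrp1 (-0.55 ± 0.10, adjusted p = 0.00244) changed lower in the endothelium than in the tubule, and Angpt2 changed higher (+0.84 ± 0.25, adjusted p = 0.0452). The Vegfa difference was -0.61 without Sham 3 (adjusted p = 0.0203). The Angpt2 difference was lost without Sham 2 (+0.54, adjusted p = 0.147), Sham 3 (0.0542) or DOCA-salt 3 (0.181).

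Shares of cells with at least 1 UMI, with every cell thinned to 1000 UMIs, showed how widely each receptor was spread. Kdr was seen in 65.2% of capillary cells in Sham and 62.0% in DOCA-salt mice, and in 87.6% and 91.7% of glomerular cells. In arterial cells it was seen in 13.9% ± 0.531 (SD, n = 3) and 17.5% ± 0.513, and Esm1 in 11.1% ± 1.99 and 17.6% ± 2.37, each with an exact permutation p of 0.1. Without thinning these arterial shares were 57.3% and 67.7% for Kdr and 31.2% and 44.4% for Esm1, with median UMIs of 7864 and 9994 per cell. Proximal tubule cells, which should lack Kdr, gave 0.118% and 0.245% after thinning, at median UMIs of 9095 and 9433. Since 0.1 is the smallest p that 3 mice against 3 allow, none of the 63 shares compared could pass 0.05, before or after adjustment. Thinning left out 8 Sham and 14 DOCA-salt capillary cells and 9 and 8 arterial cells.

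Summed over the tubule, Nrp1 rose, Angpt2 fell and Vegfa did not pass the test. Over all tubular cells 4 of the 9 genes passed, against 5.98% of all genes. Vegfa was at 114, 123 and 112 CPM in Sham and 124, 117 and 125 CPM in DOCA-salt mice (+0.04, adjusted p = 0.840). Nrp1 was at 25.8, 23.5 and 26.4 CPM against 36.7, 43.0 and 36.2 CPM (+0.58 ± 0.10, adjusted p = 0.0154), and Angpt2 at 26.3, 38.4 and 21.3 CPM against 15.3, 14.1 and 10.9 CPM (-1.12 ± 0.22, adjusted p = 0.0220). The groups did not overlap for either gene. The Nrp1 call was lost without Sham 1 (adjusted p = 0.0569) or DOCA-salt 2 (0.0561), and the Angpt2 call without Sham 1 (0.0555), DOCA-salt 2 (0.0588) or DOCA-salt 3 (0.0930). The thin limb gave 5269 of the 5579 tubular Angpt2 UMIs of Sham mice. Its cells were 245, 225 and 227 of 7189, 5868 and 6747 tubular cells in Sham mice. In DOCA-salt mice they were 166, 153 and 104 of 6370, 5648 and 5581. The part of this make-up in the lower tubular Angpt2 was not tested. Angpt1 was at 82.4, 114 and 83.6 CPM against 64.3, 64.4 and 67.9 CPM (-0.54, adjusted p = 0.0513). Flt1 and Esm1, which are endothelial genes, were called at very low levels. Flt1 was at 3.50, 1.76 and 2.96 CPM against 4.51, 8.03 and 6.23 CPM (+1.15 ± 0.28, adjusted p = 0.0467), and Esm1 at 1.02, 0.811 and 0.664 CPM against 1.49, 2.24 and 2.97 CPM (+1.37 ± 0.27, adjusted p = 0.0241). Flt1 was lost without Sham 1 (adjusted p = 0.0681), Sham 3 (0.0898), DOCA-salt 2 (0.129) or DOCA-salt 3 (0.136), and Esm1 without the same mice (0.0569, 0.0710, 0.0649 and 0.0885). The summed endothelial markers moved with Flt1, Esm1 and Nrp1. They were at 17.9 to 24.1 CPM in the tubular cells of Sham and 29.8 to 36.9 CPM in those of DOCA-salt mice. Their part in these calls was not tested.

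By segment, Vegfa passed the test in intercalated cells, at 109, 100 and 89.3 CPM against 128, 126 and 148 CPM (+0.46 ± 0.12, adjusted p = 0.0419, with 6.71% of all genes called), but the call was lost without Sham 1 (adjusted p = 0.0707), Sham 3 (0.173), DOCA-salt 1 (0.0865), DOCA-salt 2 (0.0648) or DOCA-salt 3 (0.188). The median mitochondrial share of intercalated cells was 21.4% to 24.0% in Sham and 27.2% to 28.4% in DOCA-salt mice, and with at most 20% mitochondrial UMIs the Vegfa change was +0.21 (adjusted p = 0.465). In the Aqp6-led intercalated cluster, where 1.64% of all genes were called, Vegfa was at 77.9, 88.9 and 83.4 CPM against 111, 122 and 147 CPM (+0.64, adjusted p = 0.0357), lost without Sham 1 (adjusted p = 0.165), Sham 3 (0.123), DOCA-salt 1 (0.0600), DOCA-salt 2 (0.0647) or DOCA-salt 3 (0.231). In principal cells Vegfa was at 119, 145 and 119 CPM against 175, 186 and 149 CPM (+0.47, adjusted p = 0.0700), and in the proximal tubule at 116, 121 and 114 CPM against 120, 111 and 115 CPM (-0.08). In the distal convoluted and connecting tubule it was at 122, 151 and 130 CPM against 129, 110 and 144 CPM (-0.20, adjusted p = 0.340), with -0.43 (adjusted p = 0.104) in its Egfem1-led cluster. The change was +0.34 (adjusted p = 0.382) in the thin limb and +0.20 (adjusted p = 0.551) in the thick ascending limb. The proximal tubule, the largest store of Vegfa RNA, thus showed overlapping groups, and its share of the kidney's Vegfa UMIs was 68.4% in Sham and 57.7% in DOCA-salt mice beside 62.5% and 49.0% of all UMIs.

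Angpt1 moved in opposite directions along the distal nephron. In the distal convoluted and connecting tubule, where 15.9% of all genes were called, it fell from 98.0, 189 and 113 CPM to 48.6, 18.8 and 32.0 CPM (-2.13 ± 0.29, adjusted p = 0.000406), and the call held without any single mouse. In intercalated cells it fell from 33.1, 45.4 and 36.9 CPM to 15.4, 9.29 and 18.5 CPM (-1.38 ± 0.22, adjusted p = 0.00402), though with finer clustering the change was -0.52 (adjusted p = 0.354). In the thick ascending limb, where 1.58% of all genes were called, it was at 10.4, 10.7 and 8.70 CPM against 5.25, 4.02 and 4.90 CPM (-1.08 ± 0.21, adjusted p = 0.0264), a call lost without Sham 1 (adjusted p = 0.134), Sham 3 (0.0621), DOCA-salt 1 (0.0768), DOCA-salt 2 (0.107) or DOCA-salt 3 (0.111). With at most 20% mitochondrial UMIs this change was -3.19 (adjusted p = 0.000244). That limit lies below the median share of this segment, 32.7% to 34.8% in Sham and 32.5% to 34.3% in DOCA-salt mice. It left 136, 103 and 88 of 802, 521 and 878 Sham cells, and 157, 139 and 136 of 713, 621 and 552 DOCA-salt cells. All cells of the segment held only 155 Angpt1 UMIs in Sham and 76 in DOCA-salt mice, so this value rests on few counts. In principal cells, where 6.82% of all genes were called, it was instead higher, at 34.1, 39.2 and 40.2 CPM against 49.8, 69.5 and 118 CPM (+1.11 ± 0.27, adjusted p = 0.0304), and this call was lost without Sham 1 (adjusted p = 0.116), Sham 3 (0.0857), DOCA-salt 2 (0.0566) or DOCA-salt 3 (+0.71, adjusted p = 0.0990). Markers of the distal convoluted and connecting tubule summed to 1046 to 1345 CPM in Sham and 1638 to 2136 CPM in DOCA-salt principal cells. That segment held Angpt1 at 98.0 to 189 CPM in Sham mice. In DOCA-salt mice it held 18.8 to 48.6 CPM, in each mouse below the principal cells. The part of RNA from that segment in the principal cell difference was not tested.

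The Angpt1 changes were also followed in single clusters. In the distal convoluted and connecting tubule, the Slc12a3-led cluster made up 44.1% to 58.7% of the segment's cells in Sham mice and 69.4% to 77.3% in DOCA-salt mice. The other, Egfem1-led cluster carried most Angpt1, at 155, 277 and 192 CPM against 72.0, 32.6 and 59.6 CPM (-2.11 ± 0.25, adjusted p = 1.51e-05, with 24.3% of all genes called), while in the Slc12a3-led cluster the change was -0.74 (adjusted p = 0.144, with 7.62% of all genes called). The fall passed the test in the Egfem1-led cluster and in the segment, and the part of the cluster shares in it was not tested. Among intercalated cells it was seen in the Slc26a4-led cluster, where 8.08% of all genes were called, at 40.2, 53.4 and 46.2 CPM against 13.4, 12.2 and 22.3 CPM (-1.501 ± 0.22, adjusted p = 0.00157), and the Aqp6-led cluster gave -0.40 (adjusted p = 0.724). In the proximal tubule as a whole Angpt1 was at 102, 136 and 106 CPM against 81.9, 87.2 and 85.6 CPM (-0.50, adjusted p = 0.0526). Its Snhg11-led cluster, where Angpt1 was highest and itself among the leading genes, gave 400, 544 and 377 CPM against 301, 272 and 289 CPM (-0.66 ± 0.15, adjusted p = 0.0286, with 4.06% of all genes called), and the call was lost without DOCA-salt 1 (adjusted p = 0.0834), DOCA-salt 2 (0.0908) or DOCA-salt 3 (0.135). The Angpt1 change was -0.55 (adjusted p = 0.0769) in the Slc5a2-led proximal tubule cluster. In the Osgin1-led cluster, where Angpt1 was low, it was at 13.5, 12.9 and 14.7 CPM against 15.8, 18.8 and 19.8 CPM (+0.36, adjusted p = 0.107), higher in DOCA-salt mice without overlap or passing the test.

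**Figure D3:**
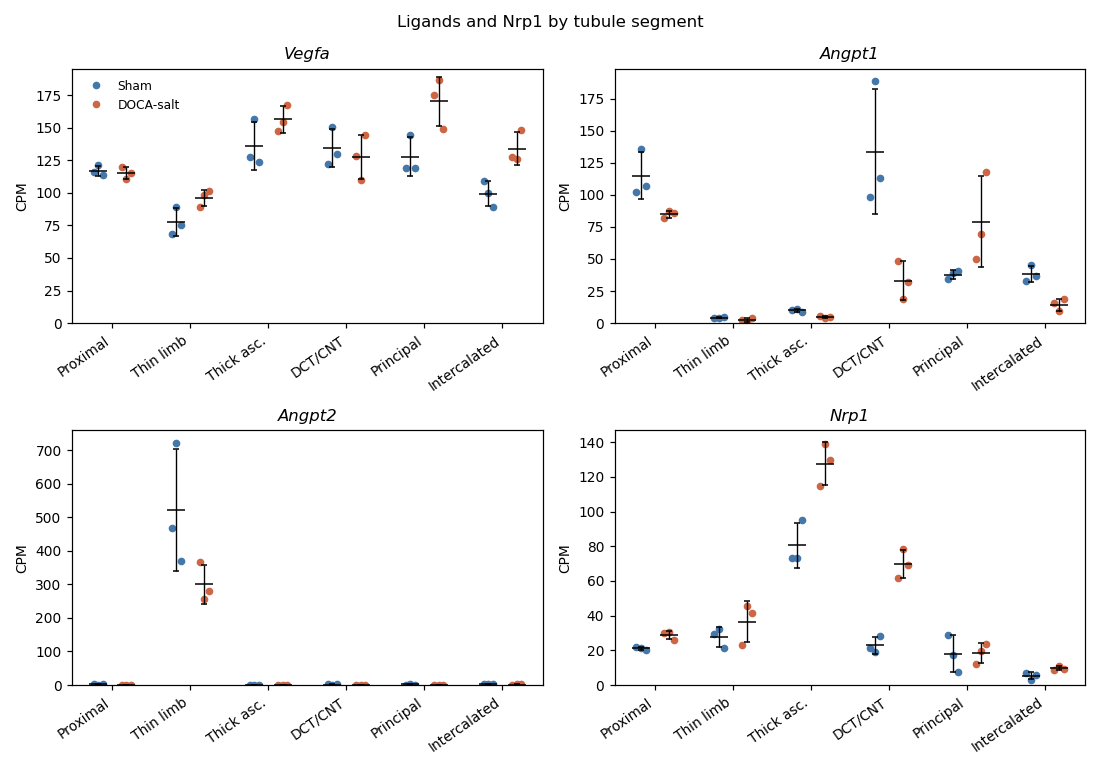
Levels (CPM) of Vegfa, Angpt1, Angpt2 and Nrp1 in 6 tubular segments, with points for mice and bars for group means with SD (n = 3 per group). Angpt1 is lower in the distal convoluted and connecting tubule of DOCA-salt mice (18.8 to 48.6 CPM against 98.0 to 189 CPM) and Nrp1 is higher there, and Angpt2 stands out in the thin limb.

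Angpt2 was a thin limb gene in these kidneys. It was at 469, 722 and 371 CPM in the thin limb of Sham and 366, 255 and 280 CPM in that of DOCA-salt mice (-0.76 ± 0.22, adjusted p = 0.176, with 0.818% of all genes called), so the groups lay apart without passing the test. Under 2 of the 14 alternatives it did pass, and the change ranged from -0.94 to -0.47 over all of them. Thin limb cells were 2.56% of all cells in Sham and 1.51% in DOCA-salt mice, and held 4.56% and 2.94% of the UMIs, which moved with the lower Angpt2 of the whole kidney. The share of thin limb cells with an Angpt2 UMI, after thinning, was 31.8% and 22.0% (exact permutation p = 0.2).

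Among the 6 tubular segments, Nrp1 had its largest change in the distal convoluted and connecting tubule. There it rose from 21.1, 19.2 and 28.1 CPM to 62.0, 78.3 and 69.0 CPM (+1.47 ± 0.18, adjusted p = 0.00019), and the call held without any single mouse. Both clusters of the segment showed the rise, each also without any single mouse: the Slc12a3-led cluster at 22.5, 22.6 and 32.6 CPM against 75.5, 95.7 and 78.0 CPM (+1.503 ± 0.20, adjusted p = 9.71e-05) and the Egfem1-led cluster at 19.9, 17.2 and 23.8 CPM against 39.1, 39.2 and 47.0 CPM (+0.83 ± 0.22, adjusted p = 0.0113). Nrp1 was also higher in the Slc26a4-led intercalated cluster (+1.55, adjusted p = 0.0126), although not without Sham 1 (adjusted p = 0.0511). In the thick ascending limb it was at 73.0, 73.2 and 95.3 CPM against 115, 139 and 130 CPM (+0.65, adjusted p = 0.0514), and in the proximal tubule at 22.2, 21.1 and 19.99 CPM against 30.0, 30.7 and 26.2 CPM (+0.40, adjusted p = 0.0546). Neither passed, although no DOCA-salt mouse overlapped a Sham mouse in either segment. Within single proximal tubule clusters Nrp1 did pass, at +0.75 (adjusted p = 0.0194) in the Slc5a2-led, +0.87 (adjusted p = 0.0257) in the Snhg11-led and +0.50 (adjusted p = 0.0170) in the Osgin1-led cluster, where 3.02%, 4.06% and 15.4% of all genes were called. These calls were lost without Sham 1 (adjusted p = 0.0696, 0.0779 and 0.0761) and without some of the other mice. The 3 clusters held 5289, 3751 and 5141 of the 26662 proximal tubule cells. The 5 other clusters of the segment were not tested, and in 4 of them the Nrp1 levels of the groups overlapped. In the principal cells the change was +0.06. The proximal tubule, where 7.11% of all genes were called, had calls for the low-level endothelial genes Flt1 (+1.40 ± 0.23, adjusted p = 0.0111) and Esm1 (+1.42 ± 0.27, adjusted p = 0.0194), in cells whose summed endothelial markers were 9.30 to 16.6 CPM in Sham and 21.0 to 27.8 CPM in DOCA-salt mice. The Flt1 call of the segment was lost without DOCA-salt 3 (adjusted p = 0.0513), and the Esm1 call without Sham 3 (0.0670), DOCA-salt 2 (0.0529) or DOCA-salt 3 (0.0752). Between the thick ascending limb and the proximal tubule, where the change of 4.73% of all genes differed, none of the 9 genes passed. Angpt1 there differed by -0.62 (adjusted p = 0.0831), and passed without Sham 2 (-0.76, adjusted p = 0.0324), without doublet removal (-0.78, adjusted p = 0.00954) and with at most 20% mitochondrial UMIs (-2.83, adjusted p = 4.86e-05). The last of these settings kept only a minority of the thick ascending limb cells, as given above.

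**Figure D4:**
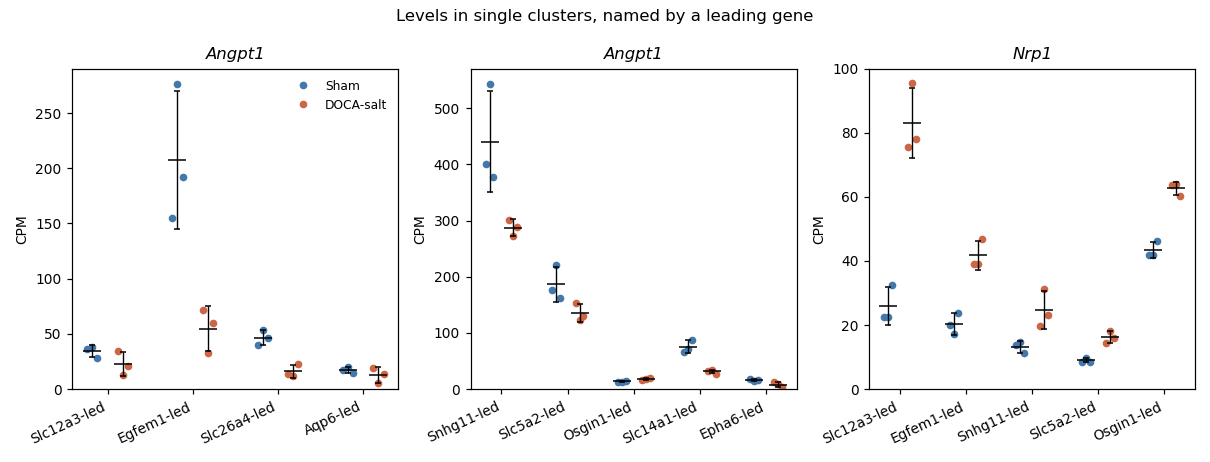
Levels (CPM) of Angpt1 and Nrp1 in single clusters of the distal nephron, proximal tubule and arterial endothelium, each named by its leading gene, with points for mice and bars for group means with SD. Angpt1 is lower in the Egfem1-led cluster of DOCA-salt mice (32.6 to 72.0 CPM against 155 to 277 CPM), and Nrp1 is higher in the Slc12a3-led cluster (75.5 to 95.7 CPM against 22.5 to 32.6 CPM).

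Outside the endothelium and tubule, Nrp1 was the gene that stood out. In macrophages it rose from 70.8, 24.6 and 84.4 CPM to 131, 203 and 162 CPM (+1.34 ± 0.27, adjusted p = 0.00729), the call of 1 of the 3 genes with enough counts, against 7.73% of all genes, and it held without any single mouse. After thinning, 5.53% ± 2.26 (SD, n = 3) of the macrophages of Sham and 15.1% ± 3.54 of those of DOCA-salt mice had an Nrp1 UMI (exact permutation p = 0.1), and 17.9% and 48.6% had one without thinning, at median UMIs of 3929 and 5304. In proximal tubule cells 1.97% and 2.49% had one after thinning. Endothelial markers summed to 22.1 to 143 CPM in the macrophages of Sham and 46.1 to 51.5 CPM in those of DOCA-salt mice, and fibroblast markers to 0 to 1.73 CPM and 18.3 to 31.0 CPM. The part of these other cells in the difference was not tested. Macrophages were 1.21% of all cells in Sham and 4.72% in DOCA-salt mice. Smooth muscle cells and pericytes had Nrp1 at 367, 264 and 322 CPM against 317, 443 and 346 CPM, Angpt1 at 34.9, 57.2 and 37.0 CPM against 39.8, 42.5 and 47.5 CPM, and Angpt2 at 44.8, 57.2 and 33.1 CPM against 36.5, 51.0 and 57.0 CPM. None of the 4 genes tested in these mural cells passed, where 1.74% of all genes did, and the groups overlapped for each of these 3 genes. In the fibroblasts of DOCA-salt mice Nrp1 was at 362, 528 and 453 CPM, Angpt1 at 97.7, 116 and 110 CPM, and Angpt2 at 39.8, 40.9 and 54.3 CPM. Only 1 Sham mouse had 10 or more fibroblasts (24 cells), so no test was made.

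Vegfa and Angpt2 were also called in parietal-like cells, the class with markers of the outer layer of the glomerulus, where 2 of the 6 genes tested passed, against 28.9% of all genes. Vegfa was at 55.5, 109 and 121 CPM in Sham and 58.9, 58.9 and 52.8 CPM in DOCA-salt mice (-0.63 ± 0.21, adjusted p = 0.0431), with overlapping groups, and the call was lost without Sham 2 (adjusted p = 0.119), Sham 3 (-0.40, adjusted p = 0.225), DOCA-salt 1 (0.104), DOCA-salt 2 (0.0688) or DOCA-salt 3 (0.133). Angpt2 was at 7.79, 14.3 and 4.53 CPM against 3.29, 2.07 and 2.17 CPM (-1.71 ± 0.42, adjusted p = 0.00919), a call lost without Sham 2 (-1.12, adjusted p = 0.121). The median mitochondrial share of this class was 6.15% to 9.27% in Sham and 10.6% to 11.5% in DOCA-salt mice. Its median UMIs per cell were 8842 to 10602 and 16949.5 to 22002. The part of both in these calls was not tested. The class also changed its make-up. A Wt1-led cluster held 242 Sham and 169 DOCA-salt cells, and a C3-led cluster held 83 and 679. The class name was not stable for most DOCA-salt cells. With at most 20% mitochondrial UMIs, a limit above the class medians, the class held 50, 52 and 57 DOCA-salt cells in place of 247, 277 and 324. In Sham mice it then held 64, 78 and 70 cells in place of 84, 114 and 127. Vegfa was at 61.2, 129 and 160 CPM against 49.5, 58.5 and 43.3 CPM in the Wt1-led cluster (-1.23, adjusted p = 0.0258, with 2.83% of all genes called), lost without Sham 2 (adjusted p = 0.0513), Sham 3 (0.128), DOCA-salt 1 (0.0919) or DOCA-salt 3 (0.0963). In the C3-led cluster it was at 33.2, 57.7 and 59.6 CPM against 60.9, 59.0 and 55.0 CPM (+0.15, adjusted p = 0.746, with 9.58% of all genes called).

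Few of the barcodes analysed carried markers of podocytes, the classical source of glomerular VEGF. Barcodes with at least 3 of the 5 podocyte markers numbered 26 in Sham and 4 in DOCA-salt mice. The Sham barcodes held 158 Vegfa UMIs among 207203, or 763 CPM with an exact 95% Poisson interval of 648 to 891 CPM, and the DOCA-salt barcodes 16 Vegfa UMIs, or 129 CPM (73.5 to 209 CPM). These intervals cover counting error only. The Sham barcodes also carried the endothelial receptor genes Kdr at 487 CPM and Flt1 at 309 CPM. Of the Sham barcodes 24 sat in the Wt1-led cluster and gave 127 of its 309 Vegfa UMIs. Without the podocyte barcodes, Vegfa in that cluster was at 48.4, 84.1 and 87.3 CPM in Sham and at 49.5, 50.7 and 43.7 CPM in DOCA-salt mice, and the groups overlapped.

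**Figure D5:**
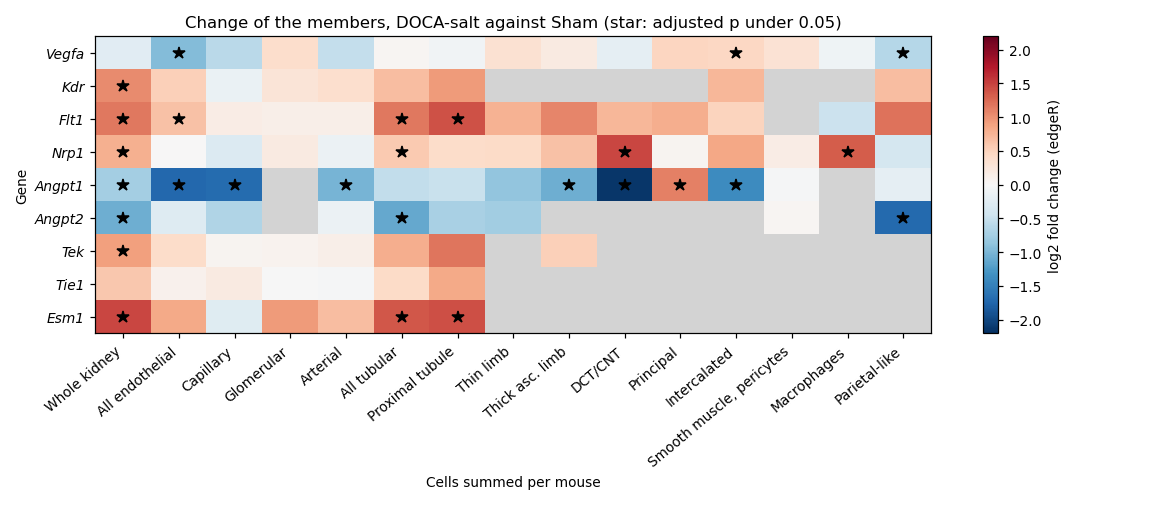
Log2 change (DOCA-salt against Sham) of the 9 genes in the whole kidney and in sums over cell types, with stars at an adjusted p under 0.05 and grey where a gene was not tested. The receptors Kdr, Flt1 and Tek are higher in the whole kidney (+0.90 to +1.15) and near 0 in capillary cells (-0.15 to +0.16), and Angpt1 is lower in most sums but higher in principal cells.

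Other genes of the pathway were taken from lists that were chosen with earlier results of these data known, so their counts are descriptions. They stand beside the shares of all genes called (17.2% in the whole kidney, 9.60% in the endothelium and 5.98% in the tubule) and median changes of all genes of -0.02, -0.03 and -0.01. Of the 6 other VEGF ligands and receptors, 3 rose in the whole kidney and none fell (median log2 change +0.79 over the list). Vegfd, a ligand of VEGFR3, was at 2.24, 1.72 and 2.38 CPM against 5.56, 9.72 and 11.04 CPM (+1.92, adjusted p = 0.0025), and the receptors Nrp2 (+1.65, adjusted p = 0.0023) and Flt4 (+1.38, adjusted p = 0.0037) rose with it. In the endothelium Nrp2 and Flt4 rose (+1.16 and +0.83) and Vegfc, the other ligand of VEGFR3, fell from 160, 131 and 175 CPM to 101, 87.4 and 70.6 CPM (-0.86). Within capillary cells none of the 4 genes of this list that were tested passed (median +0.03, 1 gene with an unadjusted p under 0.05), with Nrp2 at +0.20, Flt4 at +0.36 and Vegfc at -0.15. Of the other angiopoietin-Tie genes, 1 of 6 rose in the whole kidney, Svep1 (+2.47, adjusted p = 0.0019), which encodes an extracellular matrix protein, and none of the 4 tested in the endothelium, the 2 tested in capillary cells or the 5 tested in the tubule was called. Vegfd was the call among the 5 other VEGF genes tested in the tubule (+0.82). Of 24 genes that relay the VEGFR2 signal inside the cell, 6 rose (median of the list +0.11), led by the kinase gene Prkcb (+1.33), and Pik3ca fell (-0.31) in the whole kidney. In the endothelium 1 of 21 rose (Ptk2, the focal adhesion kinase, +0.43) and 3 fell, namely Nos3, the endothelial nitric oxide synthase (-0.73), Prkca (-1.17) and Plcg2 (-0.71), and in the tubule none of 23 was called. Within capillary cells, where 9.08% of all genes were called, 2 of 20 rose, Pik3r1 (+0.96) and Pxn (+0.64), and none fell (median +0.18), with Nos3 at +0.16, Prkca at +0.50 and Plcg2 at -0.15, none of these 3 past the threshold.

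A further list held genes known from endothelial tip cells, the leading cells of a sprout. In the whole kidney 7 of the 14 rose and none fell (median +0.81), and in the tubule 2 of 13 rose, Igfbp3 (+1.04) and Pdgfb (+0.81). In the endothelium 7 of the 14 rose and 1 fell (median +0.61). The largest rises were those of the peptide gene Apln (+2.00), the basement membrane genes Nid2 (+1.88) and Lamb1 (+1.77), Trp53i11 (+1.70) and Igfbp3 (+1.19), and Kcne3 fell (-1.08). Within capillary cells, where the median of all genes was 0.00, 4 of the 14 rose and none fell (median +0.72), with Lamb1 at +1.85, Nid2 at +1.28 and Trp53i11 at +1.13. Among the 10 semaphorins and plexins tested in the endothelium, the partners of Nrp1, 4 rose and none fell (median +0.29), with Sema3d at +0.98 and Plxnd1 at +0.73. In the tubule 4 of 11 rose (median +0.52), with Sema3d at +1.85 and Plxnd1 at +1.30, and in the whole kidney 8 of 12 rose (median +0.62). Beside the tubular calls of both lists, the summed endothelial markers of tubular cells were higher in DOCA-salt mice, as given above for Flt1 and Esm1, and their part was not tested. In capillary cells 2 of 9 semaphorins and plexins rose, Sema3f (+0.63) and Plxnd1 (+0.58), and none fell (median +0.14). Of the hypoxia regulators 1 of 8 rose in the endothelium, Hif1a, at 184, 173 and 152 CPM against 264, 297 and 277 CPM (+0.71, adjusted p = 0.0039), and of the hypoxia targets 2 of 9 rose there, Ankrd37 (+2.24) and Pdk1 (+0.54). The medians of both lists in the endothelium were -0.03 and -0.07. In capillary cells Hif1a (+1.09) and Ankrd37 (+2.26) rose and Pfkfb3, a glycolysis gene, fell (-0.70), the calls among 8 regulators (median -0.01) and 8 targets (median +0.04). In the tubule and the whole kidney 1 of 8 regulators rose, the oxygen sensor gene Egln3 (+0.96 and +0.67), and none of the 11 targets was called. Of 17 genes of the response to cell dissociation, 1 fell in the endothelium (Egr1, -0.82), 1 rose in the whole kidney (Socs3, +0.65) and none was called in the tubule, while in capillary cells 1 rose (Socs3, +0.63).

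The genes whose levels followed each member most closely across 19 cell types were found by Pearson's r of the mean log2(CPM + 1), among 12011 genes. These correlations are descriptions, since all cell types share the same 6 libraries. The receptors went with endothelial genes: Kdr with Cyyr1 (r = 0.969) and Cdh5 (0.963), Flt1 with Tek (0.948) and Fabp4 (0.946), Tie1 with Sox18 (0.990) and Cdh5 (0.987), and Esm1 with Thbd (0.950) and Ptprb (0.931). Nrp1 had Gm56862 (0.970) and Eng (0.894) nearest to it. For the ligands the nearest genes were less close, with Poldip2 (0.881) for Vegfa, A4galt (0.793) for Angpt1 and Efna2 (0.853) for Angpt2.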

How the data were processed

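Single-cell suspensions of whole kidneys (collagenase digestion, straining, red cell lysis) were sequenced with 10x 3′ v3.1 chemistry, 1 library per mouse. The UMI counts per gene and barcode were deposited by the authors, unnormalized, after alignment to GRCm39 with Cell Ranger (9.0.0 in the processing notes, 8.0.1 in the matrix headers). No cell annotation was used here. Of 76774 barcodes, 60561 were kept: those with 170 or more genes, 500 or more UMIs, and mitochondrial and haemoglobin shares of no more than 50% and 5%. Then the 544 to 947 barcodes per mouse with the highest Scrublet doublet scores were removed, and cells were clustered with scanpy 1.11.5 (2000 variable genes without the 9 members, 30 components, Leiden resolution 1, and 0.3 for the endothelium) and named by at least 3 fixed markers. Counts were summed per mouse and cell type (at least 10 cells) and tested with edgeR 4.0.16 (filterByExpr, TMM, quasi-likelihood F test, Benjamini-Hochberg over all genes tested), which was checked on simulated data. SE is the log2 change divided by the root of F.

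Mice are the replicates, n = 3 per group, and p-values measure the spread between them. Equal replicate numbers did not pair mice (correlations of deviations -0.019, -0.413 and -0.048). All 9 members were named, and of the pathway lists the genes past the threshold, at most the 5 largest changes per list. The members and lists were chosen with earlier results of these data known. Alternatives were DESeq2 1.42.0, other scalings, no filter, a replicate block, each mouse left out, a 20% mitochondrial limit, no doublet removal, finer clusters, cells taken by their own markers in place of clusters, pseudocounts of 0.1 and 5 for the ratios, and other thinning depths. Fits within single clusters were added after seeing the data.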

Additional observations from a re-analysis of the deposited data

Results flagged for a closer look

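The change between Sham and DOCA-salt mice differed between cell types for 6 gene and cell type pairs, by edgeR's test of the difference of the log2 changes with adjustment over all genes. Between arterial and capillary endothelium, Esm1 differed by +0.94 (adjusted p = 0.0011), with a change of +0.67 in arterial and -0.26 in capillary cells, and Kdr by +0.51 (adjusted p = 0.0213), with +0.37 and -0.15. Neither gene passed the test in either sub-type on its own. The capillary class changed its make-up, with 184, 23 and 185 Sham and 20, 20 and 23 DOCA-salt cells in its Exoc3l2-led cluster. Esm1 changed by -0.51 in that cluster and -0.01 in the Fabp4-led one, and Kdr by -0.67 and -0.02. In the arterial clusters Esm1 changed by +0.45 (Slc14a1-led), +1.68 (Epha6-led) and -0.40 (Stmn2-led), and Kdr by +0.07, +0.45 and +0.36. The part of these clusters in both differences was not tested. Between the endothelium and the tubule, Angpt1 differed by -1.19 (adjusted p = 0.00101), with -1.73 against -0.54, Vegfa by -0.95 (adjusted p = 0.00504), with -0.96 against +0.04, Nrp1 by -0.55 (adjusted p = 0.00244), with 0.00 against +0.58, and Angpt2 by +0.84 (adjusted p = 0.0452), with -0.28 against -1.12. The make-up of the endothelium (capillary cells 44.9% in Sham and 67.0% in DOCA-salt mice) moved with the last 4 differences, and its part in them was not tested. For Angpt2 the make-up of the tubule moved as well. The thin limb, which gave 5269 of the 5579 tubular Angpt2 UMIs of Sham mice, held 245, 225 and 227 cells in Sham mice. In DOCA-salt mice it held 166, 153 and 104 cells, and the part of this was not tested. Proximal tubule markers in the endothelium were at 546 to 833 CPM in Sham and 306 to 500 CPM in DOCA-salt mice beside the lower Angpt1 and Vegfa, and their part was not tested either.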

How the results depend on the processing

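Of 97 results for single genes, 27 passed the test, all 27 kept their direction under every alternative that gave a value, fits within single clusters aside (capillary Angpt1 had none without each DOCA-salt mouse, and parietal-like Angpt2 none with at most 20% mitochondrial UMIs), and 10 also stayed past the threshold: Kdr, Flt1, Nrp1, Angpt1, Angpt2 and Tek in the whole kidney, Nrp1 and Angpt1 in the distal convoluted and connecting tubule, Nrp1 in macrophages and Angpt1 in the endothelium. Of the rest, 22 passed and 23 changed sign under some alternative (56 values). In the endothelium the 3 calls became 6 with DESeq2, 5 with its size factors in edgeR, 6 without the filter on low counts and 1 to 6 with single mice left out. In capillary cells the count was 0 to 1 and in glomerular cells 0 to 1 with single mice left out. The 1 arterial call became 2 without the filter, 3 without doublet removal, 3 with finer clusters and 0 to 2 with single mice left out. The 4 calls of the tubule became 7 without doublet removal and 0 to 5 with single mice left out, and the 8 calls over segments became 14 with DESeq2, 16 without the filter, 15 without doublet removal and 3 to 15 with single mice left out. The 3 calls in stroma, macrophages and parietal-like cells became 5 without the filter, 1 with at most 20% mitochondrial UMIs, 9 without doublet removal and 1 to 3 with single mice left out. The whole kidney kept 6 to 7 calls and the differences of change 5 to 7 with single mice left out. The cause of these shifts was not tested.

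Same-numbered mice share only a number, and with a replicate block the calls were 1 in the endothelium, 0 in arterial cells, 1 in the tubule and 4 over segments. Scaling by library size alone moved the median of all genes by 0.118 (log2) in the whole kidney, 0.126 in the distal convoluted and connecting tubule and -0.135 in parietal-like cells. The intercalated Vegfa change was +0.21 (adjusted p = 0.465) with at most 20% mitochondrial UMIs, and its call was lost with library size alone (0.0641). The parietal-like Vegfa call was lost with DESeq2 (adjusted p = 0.0570), at most 20% mitochondrial UMIs (0.115), no doublet removal (0.207) or finer clusters (0.157), the tubular Flt1 call with finer clusters (0.0631) or cells taken by their own markers (0.109), and the tubular Esm1 call with at most 20% mitochondrial UMIs (0.0721) or cells taken by their own markers (0.0645). In parietal-like cells the Vegfa change turned to +0.15 in the C3-led cluster alone. The 20% mitochondrial limit also changed which cells made up this class, with 50, 52 and 57 DOCA-salt cells in place of 247, 277 and 324. The Angpt2 difference between endothelium and tubule was lost with DESeq2 size factors (adjusted p = 0.0546), library size alone (0.0571), at most 20% mitochondrial UMIs (0.163) or no doublet removal (0.191). The median difference in the share of endothelial cells with a UMI was 0.343 percentage points, and 3.30 without thinning, where depth differs. Leaving out endothelial cells with over 2% proximal tubule marker UMIs removed none. Glomerular sums rested on 13 to 40 cells per mouse, and the smallest change detectable there was not estimated.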

Other observations

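Cycling cells, the class with proliferation markers, carried endothelial members of the pathway in DOCA-salt mice, and no test was made there. Kdr was at 7.08, 0 and 5.00 CPM in the cycling cells of Sham mice and at 149, 176 and 146 CPM in those of DOCA-salt mice. Esm1 was at 2.02, 0 and 0 CPM against 128, 219 and 155 CPM, and Flt1 at 22.3, 1.22 and 112 CPM against 321, 386 and 321 CPM. For these 3 genes no Sham mouse reached a DOCA-salt mouse, and the share of all genes that lay apart there was not counted. The summed endothelial markers of the cycling cells stood at 7.34 to 557 CPM in Sham and 1166 to 1594 CPM in DOCA-salt mice, and moved with these genes. Of all Kdr UMIs, cycling cells held 0.136% in Sham and 4.92% in DOCA-salt mice.

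Nrp1 was also higher in T or NK cells, again without a test, at 14.9, 30.4 and 24.8 CPM in Sham and 105, 60.0 and 81.5 CPM in DOCA-salt mice, without overlap. The share of all genes that lay apart was not counted there either. The urothelium of DOCA-salt mice carried Nrp1 at 122, 117 and 147 CPM, and only 1 Sham mouse had 10 urothelial cells.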
